A study of Mus musculus with 116 samples.

Results

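MHC class I molecules show short peptides from inside the cell to cytotoxic T cells, and the genes described here encode that machinery: the heavy chains H2-K1 and H2-D1, the light chain B2m, the peptide transporter Tap1 and Tap2, the loading factor Tapbp, the immunoproteasome subunits Psmb8, Psmb9 and Psmb10, and the transactivator Nlrc5. These 10 genes were taken by symbol from a list, out of 40202 gene symbols counted in every library. The members were chosen by their known roles and with their measured CPM in the 2 cell lines in view, so the contrast between the lines is given as a description without a test.

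RNA was sequenced from untreated mouse cells of 2 lines kept under standard culture: C10, labelled as alveolar type II epithelial cells of the lung, and SVEC, labelled as endothelial cells. All libraries came from nanoSPLITS, a method that lyses cells in a nanodroplet and divides the droplet between RNA sequencing and protein measurement. Only RNA was analysed here. The C10 input series held 8 libraries of 1 cell, 6 of 3 cells and 6 of 10 cells, and a further 48 libraries of single C10 cells and 48 of single SVEC cells were made. The labels give no strain, clone, passage, culture or batch, and single C10 cells are listed apart from the 1-cell libraries of the input series. Each single-cell library is 1 cell and no separate cultures are named, so the spread below is between cells.

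In the textbook pathway, proteasomes cut cytosolic proteins into peptides, the transporter formed by Tap1 and Tap2 moves them into the endoplasmic reticulum, and tapasin, the product of Tapbp, holds the empty heavy chain and B2m light chain beside it until a peptide binds. Interferons raise most of these genes. In the immunoproteasome the catalytic subunits Psmb5, Psmb6 and Psmb7 are replaced by Psmb8, Psmb9 and Psmb10 respectively, and Nlrc5 is an interferon-inducible regulator that acts at class I promoters. Nearly all nucleated cells carry class I, and endothelial cells are known for high levels.

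Library totals ran from 430798 to 15385625 counts in the 1-cell libraries, 6889508 to 14018116 with 3 cells and 8313314 to 14778988 with 10 cells. C10 single cells had a median of 1801477 counts and SVEC single cells 434945, so a gene at a low level was more easily missed in SVEC. Of 18 endothelial markers, 10 had no count in any single cell, Kdr and Vwf among them, and Pecam1 was seen in 5 SVEC and 12 C10 libraries. Only 4 of the 18 were found in 25% or more of the cells of one line. Of these, Flt1 had a 19.2-fold higher mean in SVEC, from 8 SVEC and 13 C10 cells. Tek had a 7.68-fold higher mean in C10, and the other 2 were within 2-fold. Of 16 alveolar epithelial markers, 7 had none, including the surfactant genes Sftpb and Sftpc. By the same share 3 of the 16 passed, with 2 within 2-fold. Cdh1, the third, had a 33.7-fold higher mean in C10, from 24 C10 cells and 1 SVEC cell. Tek, seen in 12 C10 cells and 3 SVEC cells, and Cdh1 reached the 25% share in C10 alone, which largely set their direction. Their C10 means were only 0.720 and 1.01 CPM (read counts scaled to an equal library total of 1000000). The labelled cell types are therefore used as names of the lines only. Of 17 immune cell markers, 11 had no count in any single cell, among them the pan-leukocyte gene Ptprc. None of the 17 was found in 25% of the cells of either line. Their summed level ran from 0 to 276.9 CPM in SVEC and from 0 to 80.1 in C10, with medians of 0. The most frequent were Lyz2, in 7 SVEC libraries, and Cd68, in 4 C10 libraries. Of 10 fibroblast markers, 3 had no count in any single cell, and the 3 that reached the 25% share were within 2-fold. The summed level of the 10 had medians of 1251 CPM in SVEC and 2392 in C10. Col1a1 was found in 47 SVEC and 46 C10 cells.

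The genes sit close together, and their promoters are shown because 7 of the 10 lie on chromosome 17, in and beside the MHC region. Psmb8 lies between Tap1 and Tap2. Psmb9 and Tap1 lie head to head, and their promoter windows overlap, so the sequence printed for Tap1 is, on the other strand, nearly the whole Psmb9 window. B2m lies on chromosome 2, and Psmb10 and Nlrc5 lie on chromosome 8. RefSeq promoters (build GRCm38.p6) were matched for 8 of the 10 genes, and Tap2 and Nlrc5 are named only. Each sequence below is the 250 bases before a listed start, 5′ to 3′. Capitals mark matches, on either strand, to a CCAAT box (CCAAT), the core of a cyclic AMP response element (TGACG), the NF-kappaB consensus, the interferon response element ISRE (GAAANNGAAA) and the interferon gamma activated site GAS (TTCNNNGAA).
H2-K1 (chr17:34000334-34000583, minus strand): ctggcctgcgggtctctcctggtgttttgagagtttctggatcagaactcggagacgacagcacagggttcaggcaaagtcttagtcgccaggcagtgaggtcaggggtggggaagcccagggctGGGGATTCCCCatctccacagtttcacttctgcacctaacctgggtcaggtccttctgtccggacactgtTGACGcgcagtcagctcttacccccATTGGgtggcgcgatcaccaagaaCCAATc
H2-D1 (chr17:35262844-35263093, plus strand): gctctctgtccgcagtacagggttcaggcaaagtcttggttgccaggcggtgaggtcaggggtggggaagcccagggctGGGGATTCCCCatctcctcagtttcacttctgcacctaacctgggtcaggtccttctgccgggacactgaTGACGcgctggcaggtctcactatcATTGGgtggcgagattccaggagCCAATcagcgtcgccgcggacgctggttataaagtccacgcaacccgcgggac
B2m (chr2:122147437-122147686, plus strand): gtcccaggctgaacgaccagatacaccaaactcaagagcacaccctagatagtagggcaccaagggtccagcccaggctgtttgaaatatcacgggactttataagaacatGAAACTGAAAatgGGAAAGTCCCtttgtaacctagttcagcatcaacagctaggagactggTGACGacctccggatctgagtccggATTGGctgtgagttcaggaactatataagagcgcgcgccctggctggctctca
Tap1 (chr17:34187306-34187555, plus strand): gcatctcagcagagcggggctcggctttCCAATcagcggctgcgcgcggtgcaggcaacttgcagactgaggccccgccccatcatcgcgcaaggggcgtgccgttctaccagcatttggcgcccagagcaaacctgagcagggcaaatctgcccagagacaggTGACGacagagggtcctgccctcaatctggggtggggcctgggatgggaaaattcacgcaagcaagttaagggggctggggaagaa
Psmb8 (chr17:34197945-34198194, plus strand): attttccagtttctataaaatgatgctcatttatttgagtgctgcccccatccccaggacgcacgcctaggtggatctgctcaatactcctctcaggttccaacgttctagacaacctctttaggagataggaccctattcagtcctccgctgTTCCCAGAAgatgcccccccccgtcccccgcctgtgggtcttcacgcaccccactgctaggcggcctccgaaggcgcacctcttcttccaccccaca

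A CCAAT box and a TGACG core occurred together in the windows of 5 of the 8 genes, namely H2-K1, H2-D1, B2m, Tap1 and Psmb9, against 6.12% of all 32851 promoter windows of that length. Tap1 and Psmb9 share the same bases and are 1 observation. The H2-K1 and H2-D1 windows share long runs of identical bases, so their matches are not independent either. Class I promoters are known for a conserved module that holds such elements. The NF-kappaB consensus was matched in H2-K1, H2-D1 and B2m (3.90% of all windows), and its letters in H2-K1 and H2-D1 were identical. The ISRE letters given above were matched in B2m only (2.98% of all windows), and those of GAS in Psmb8 only (7.02%). Variant forms of these elements were not searched, so a window without a match may still hold one. The Psmb10 window held none of the 5, and the Tapbp window held CCAAT boxes only. Matches are of letters in these windows and were not measured as binding.

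**Figure D1:**
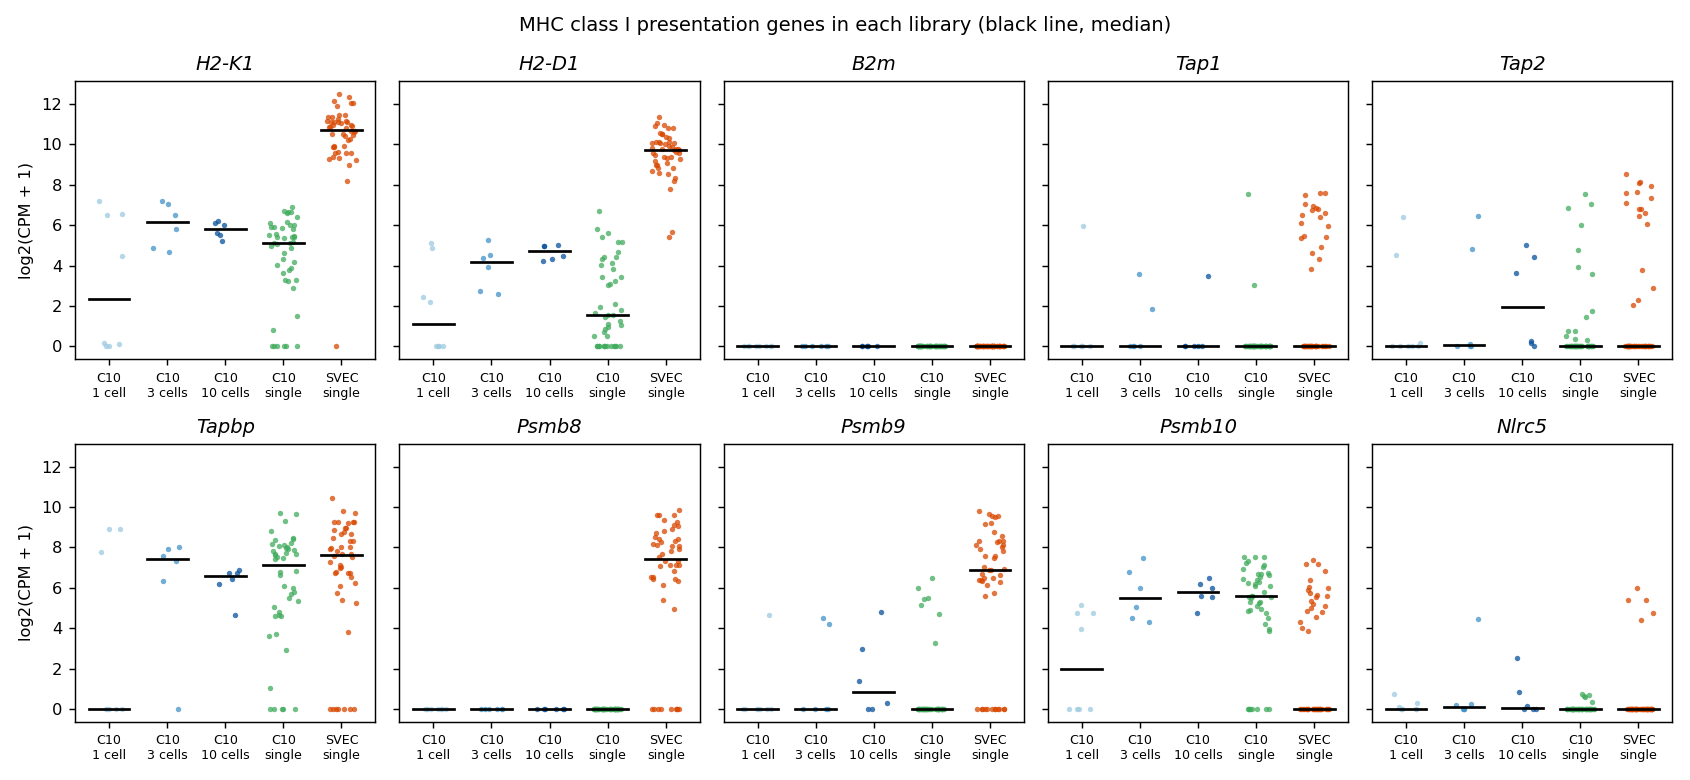
Level of each of the 10 genes in each library, as log2(CPM + 1) on the vertical axis, for the 5 library groups, with each point a library and the black line the group median. H2-K1, H2-D1, Psmb8 and Psmb9 stood highest in SVEC, Psmb10 was found in more C10 than SVEC cells, and B2m lay at 0 throughout.

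Both heavy chains were far more abundant in SVEC than in C10 single cells. H2-K1, which carries peptide to the cell surface, had 1889 ± 1270 CPM in SVEC (SD, n = 48) and 37.6 ± 32.2 in C10 (SD, n = 46), a ratio of 50.2. Its lowest, median and highest values were 0, 1699 and 5800 CPM in SVEC and 0, 33.6 and 116.5 in C10. The groups met only through 1 SVEC library, replicate 24, with 95959 counts and no H2-K1 read, and 47 of the 48 SVEC cells lay above the highest C10 cell. In libraries of at least 100000 counts, the 42 SVEC cells ran from 287.7 CPM upwards and the 45 C10 cells up to 116.5, with no overlap. Over all genes, 0.107% were free of overlap in those libraries.

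H2-D1, the second classical heavy chain, followed the same order. It had 927.1 ± 555.3 CPM in SVEC (SD, n = 48) and 11.1 ± 19.4 in C10 single cells (SD, n = 46), a ratio of 83.7, with ranges of 41.7 to 2631 and 0 to 101.9 and medians of 846.5 and 1.94. Taken from medians, the log2 ratio of H2-D1 was 8.77 in place of 6.39. H2-D1 was detected in all 48 SVEC cells, 46 of them above the highest C10 cell, and in 33 of 46 C10 cells. The SVEC cells not above it were replicate 24, with 4 H2-D1 reads, and replicate 26, with 27 reads among 552427 counts. Drawn down to 100000 counts a library, H2-D1 was found in 42 of 42 SVEC and 18 of 45 C10 cells.

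The C10 input series placed the heavy chains at the C10 level. H2-K1 had 43.8 ± 57.5 CPM with 1 cell (SD, n = 8), 79.0 ± 51.4 with 3 cells (SD, n = 6) and 55.9 ± 15.0 with 10 cells (SD, n = 6). In the 1-cell libraries its values were 146.2, 93.8, 88.7 and 21.3 CPM in replicates 5, 2, 10 and 6, about 0.1 in replicates 9 and 13, and 0 in replicates 1 and 14. In the 3-cell libraries they were 24.8, 27.8, 89.6, 133.1, 142.9 and 55.8 CPM for replicates 1, 2, 5, 6, 9 and 10. The same replicate numbers of the 10-cell libraries gave 45.1, 64.1, 68.6, 35.5, 48.5 and 73.6 CPM. All the C10 groups overlapped, and every input library was below 287.7 CPM, the lowest of the deeper SVEC cells. H2-D1 had 8.65 ± 13.7, 17.4 ± 12.1 and 25.2 ± 6.43 CPM with 1, 3 and 10 cells (SD, n = 8, 6 and 6). These neighbours overlapped too, and H2-D1 was detected in 4 of 8, 6 of 6 and 6 of 6 libraries.

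Between the 2 heavy chains, H2-K1 supplied most reads in every group. H2-K1 gave 68.1% of the reads of the pair pooled over SVEC cells (exact 95% interval 67.8 to 68.4%), 78.4% in C10 single cells and 68.9% in 10-cell libraries. Over the 45 SVEC cells with at least 20 reads of the pair the share was 66.0 ± 10.1% (SD). Across the 42 SVEC cells of at least 100000 counts, H2-K1 and H2-D1 moved together more than any other pair of members detected in at least 50% of the cells (Pearson r = 0.65 and Spearman rho = 0.86 on log2(CPM + 1)). The cells share line, preparation and scaling to the library total. Neither gene followed the library total in these cells (r of -0.02 for H2-K1 and -0.07 for H2-D1, with log2 total).

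**Figure D2:**
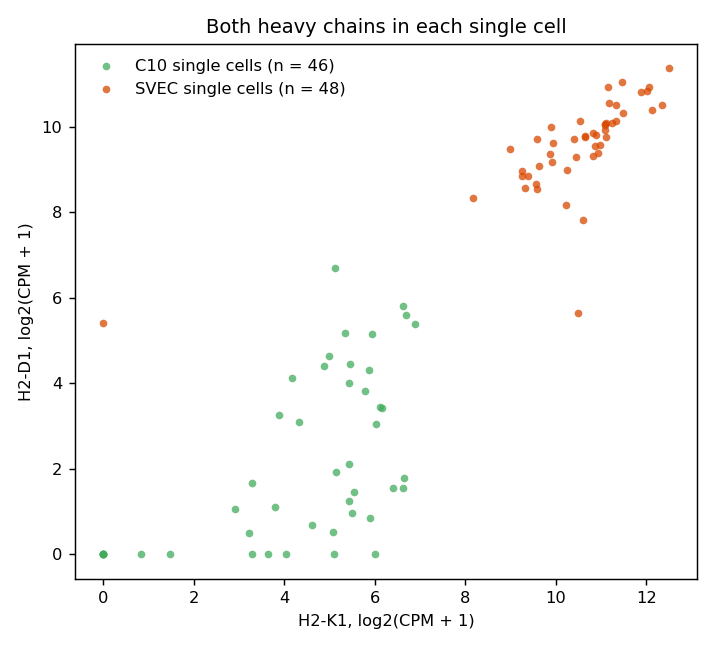
H2-D1 against H2-K1 in each single cell, both axes as log2(CPM + 1), with 46 C10 and 48 SVEC cells as points. The lines form separate clouds, apart from the SVEC cell with no H2-K1 read, and within SVEC the cells with more H2-K1 held more H2-D1.

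On a per-length scale, which allows genes to be compared, H2-K1 had an RPKM (CPM per kilobase of exon) of 1141 in SVEC. That placed H2-K1 at rank 47 of the 13756 genes detected there, and at rank 2760 of 14702 in C10 single cells, with 22.7. H2-D1 had 441.0 in SVEC and 5.27 in C10. No 150-base stretch of the H2-K1 transcripts in the GENCODE M21 annotation was identical in another gene, and for H2-D1 1.79% of stretches were, all shared with H2-Q1. The H2 genes are also polymorphic between mouse strains. The part of allele differences in read assignment was not tested.

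B2m, the light chain that every classical class I molecule needs, was listed at 0 in all 116 libraries, including the SVEC cell with 5800 CPM of H2-K1. The B2m transcripts have 860 exon bases and share no 150-base stretch with another gene, and no other gene's exon lies over them in GENCODE M21. In RefSeq B2m overlaps Patl2, which held 54 reads over all libraries. In all, 19416 of the 40202 symbols were at 0 in every library, H2-T23 and H2-T24 of the class I region among them. A value of 0 for B2m is therefore given as listed, with no statement on its expression, and how it came about was not tested.

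The transporter genes were detected in a minority of cells. Tap1 was found in 20 of 48 SVEC cells, with 36.5 ± 56.5 CPM over all of them (SD, highest 194.0), and in 2 of 46 C10 single cells, with 4.14 ± 27.0 (SD). The ratio for Tap1 was 8.82, but C10 single cell 11 alone held 183.2 CPM. Without it the C10 mean of Tap1 was 0.163 and the ratio 224.6. Tap1 was found in 1 of 8, 2 of 6 and 1 of 6 libraries of 1, 3 and 10 cells, with 62.1 CPM in 1-cell replicate 10, 11.1 and 2.58 in 3-cell replicates 10 and 2, and 10.0 in 10-cell replicate 9. Tap2 was found in 17 SVEC cells (48.9 ± 92.2 CPM, SD, n = 48) and 14 C10 single cells (12.0 ± 37.4, SD, n = 46), a ratio of 4.08 with a median of 0 in both lines. Tap2 reached 185.6 CPM in C10 and 367.6 in SVEC, so the lines overlapped over most of their range.

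Tap1 and its head-to-head neighbour Psmb9 were found in the same C10 input libraries. Each of the 4 input libraries with Tap1 also had Psmb9: 1 of 1 with 1 cell, 2 of 2 with 3 cells and 1 of 1 with 10 cells. Psmb9 without Tap1 was found in 3 further 10-cell libraries. In single cells, both were found in 1 C10 cell (cell 11, of 2 with Tap1 and 7 with Psmb9) and in 18 SVEC cells (of 20 and 36). The neighbours share 2.25% of the 150-base stretches of Tap1 and 5.24% of those of Psmb9, so a small part of their reads could not be told apart. Their levels in the 42 deeper SVEC cells had a Pearson r of 0.07. This pair was singled out after its values were seen.

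Tapbp was the member closest to equal in the 2 lines. It had 275.1 ± 284.1 CPM in SVEC (SD, n = 48) and 178.3 ± 197.0 in C10 single cells (SD, n = 46), a ratio of 1.54, with medians of 194.7 and 142.4 and highest values of 1400 and 834.3. The cells overlapped almost entirely, with 2 SVEC cells above the highest C10 cell, and Tapbp was found in 41 cells of each line. In the input series Tapbp had 145.6, 154.9 and 85.3 CPM on average with 1, 3 and 10 cells. Of the 1-cell libraries 3 had it, at 474.6, 471.8 and 218.4 CPM, and 5 had none. Of the transcript stretches of Tapbp, 8.73% were shared with the overlapping predicted gene Gm19412, which held 90 reads in all.

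The immunoproteasome genes did not move as a unit. Psmb8, the subunit that takes the place of Psmb5, was found in 39 of 48 SVEC cells and in no C10 library. In SVEC it had 253.1 ± 246.1 CPM (SD, n = 48), with a median of 171.8 and a highest value of 928.5. Set against a floor of 3 counts in each C10 single cell, 3.32 CPM on average, Psmb8 was at least 76.3-fold higher in SVEC. At equal depth the split held: drawn down to 100000 counts, 37 of 42 SVEC and 0 of 45 C10 cells had it.

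Psmb9, the counterpart of Psmb6, had 215.2 ± 245.2 CPM in SVEC (SD, n = 48) and 6.65 ± 18.6 in C10 single cells (SD, n = 46), a ratio of 32.4. It was found in 36 SVEC and 7 C10 single cells. The 7 ran up to 90.1 CPM, and 28 SVEC cells lay above that. In the input series Psmb9 reached 24.3 CPM in 1-cell replicate 10, 17.6 and 21.9 in 3-cell replicates 2 and 10, and 27.0 in 10-cell replicate 10, with 0 in 7 of 8, 4 of 6 and 2 of 6 libraries.

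Psmb10, the counterpart of Psmb7, went the other way. It was found in 38 of 46 C10 single cells, with 62.5 ± 53.6 CPM (SD, median 46.8), and in 22 of 48 SVEC cells, with 27.0 ± 41.9 (SD, median 0), and was 2.32-fold higher in C10. The highest values were close, 183.4 CPM in C10 and 167.0 in SVEC, so the groups differed mainly in how many cells had the gene. That held at equal depth, with Psmb10 found in 36 of 45 C10 and 22 of 42 SVEC cells drawn down to 100000 counts.

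Reads of each immunosubunit were then set against its constitutive counterpart in the same library. Psmb8 gave 52.3% of the reads of Psmb8 plus Psmb5 pooled over SVEC cells (exact 95% interval 51.5 to 53.0%, counting error only), and 46.6 ± 22.2% over the 39 cells with at least 20 such reads (SD, range 0 to 86.6%). Per base of transcript the pooled share was 37.7%. In C10 single cells 0 of 18561 reads of that pair were Psmb8 (exact 95% interval 0 to 0.0199%, counting error only). Psmb9 gave 18.3% of the reads of Psmb9 plus Psmb6 in SVEC and 0.992% in C10 single cells, or 11.7% and 0.588% per base of transcript. Psmb10 gave 13.3% of the reads of Psmb10 plus Psmb7 in SVEC and 20.7% in C10 single cells, with 4.85%, 26.7% and 22.5% in libraries of 1, 3 and 10 cells. Per base, the shares of Psmb10 were 11.9% in SVEC and 18.7% in C10 single cells. The SVEC cells varied widely in all 3 pairs, and for Psmb10 the cells of the lines overlapped throughout. The constitutive genes themselves were within 2-fold between the lines: Psmb5 had 230.4 and 192.9 CPM in SVEC and C10, Psmb6 766.5 and 810.6, and Psmb7 157.9 and 255.8.

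**Figure D3:**
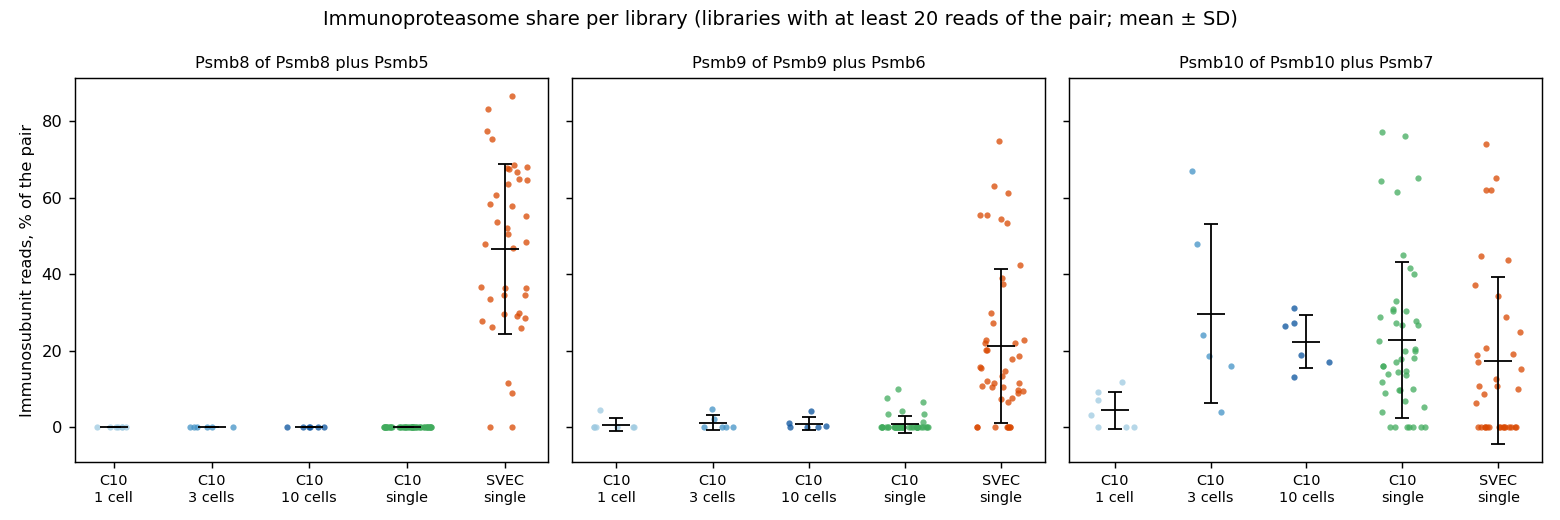
Share of reads from the immunosubunit in each pair, in percent, for libraries with at least 20 reads of the pair, in the 5 groups, with points for libraries and bars for the mean ± SD. Psmb8 was at 0% in each C10 library and averaged 46.6% in SVEC, Psmb9 averaged 21.3% in SVEC, and the Psmb10 shares of the lines overlapped.

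Nlrc5, the transactivator, was close to the limit of detection. It was found in 5 of 46 C10 single cells, each with 1 to 3 reads, and in 5 of 48 SVEC cells, with a highest value of 62.0 CPM. Its mean was 3.94 ± 12.6 CPM in SVEC (SD) and 0.0589 ± 0.177 in C10 (SD), and 43 SVEC cells had none, so no fold is drawn from it. In the input series Nlrc5 was found in 3 libraries of each input, at most 0.669 CPM with 1 cell, 21.3 with 3 cells and 4.82 with 10 cells.

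Counted as a list, 8 of the 10 members passed the detection filter (reads in 25% or more of the cells of one line), all but B2m and Nlrc5. Of these, 6 had a mean CPM at least 2-fold higher in SVEC, where 18.6% of the 9303 genes that passed were, and 1, Psmb10, was at least 2-fold higher in C10, where 19.6% were. Among the 6, Tap1, Psmb8 and Psmb9 passed the filter through SVEC alone, with counts in 2, 0 and 7 of 46 C10 cells. Their direction was thus largely set by the filter, in the counts and the median given here. The median log2 ratio over the 8, with Psmb8 at its bound, was 4.08, beside -0.02 over all genes with a ratio. At 4-fold, the same 6 were higher in SVEC (6.55% of genes) and 0 in C10 (7.93%), with Tap2 barely past that threshold. Over all libraries every member overlapped between the lines, and 0.043% of genes did not. The members were listed with this contrast known, so these counts describe the list. Summed over the members, SVEC cells had 41.7 to 9291 CPM (median 3538) and C10 single cells 14.1 to 1134 (median 276.6).

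**Figure D4:**
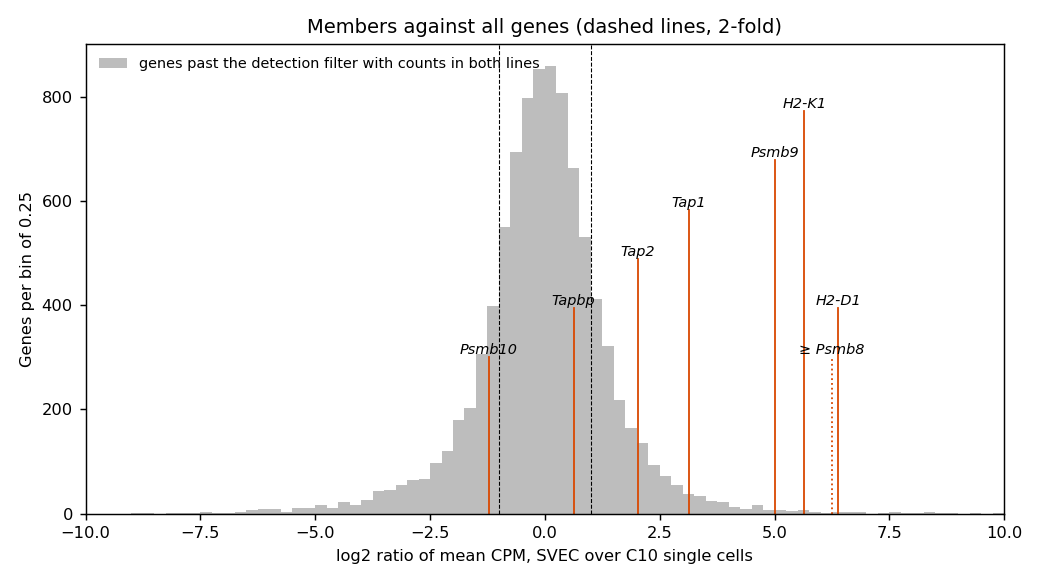
Distribution of the log2 ratio of mean CPM in SVEC over C10 single cells, with genes per bin on the vertical axis, for 9193 genes with counts in both lines; orange lines mark the members that passed the filter and dashed lines 2-fold. Psmb8 is at its lower bound and Psmb10 is the member below -1.

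The rest of the pathway was read from lists, also chosen with these results known. Of 22 other class I heavy chain genes in the files, 12 passed the filter. Of these 10 were at least 2-fold higher in SVEC and 1 in C10, with H2-M3 within 2-fold. H2-Q1 (204.5 against 4.13 CPM), H2-T-ps, a pseudogene (96.5 against 3.69), H2-Q2 (84.2 against 3.46), H2-Q4 and H2-Q9 (7.77 against 0.519) were 14.8- to 49.5-fold higher. H2-T22 was 8.16-fold and Fcgrt, the neonatal Fc receptor, 6.01-fold higher in SVEC. H2-Q6 was 29.6-fold higher in C10, but at only 1.29 CPM. H2-Q7, H2-Q9 and Mr1 passed the filter through SVEC alone and H2-Q6 through C10 alone, which favoured their direction. These genes are near-copies of each other, and the annotation, strain and treatment of shared reads are not stated, so their separate levels are uncertain.

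Other parts of the route were level. Of 12 peptide loading and trimming genes that passed, 0 were 2-fold higher in SVEC and 1 in C10. The latter was the aminopeptidase Erap1 (4.57 CPM in SVEC and 14.4 in C10). Erap1 passed the filter through C10 alone, with counts in 8 of 48 SVEC and 23 of 46 C10 cells, which favoured its direction. Calr, a chaperone of the loading complex, had 525.0 CPM in SVEC and 942.8 in C10. All 11 further genes of the proteasome core were within 2-fold. Among 9 activator and assembly genes, Psme1, part of the interferon-inducible PA28 activator, was 3.49-fold higher in SVEC (323.4 against 92.8 CPM), and Psme3 and Psmg1 were 2.02- and 2.11-fold higher in C10.

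Of 16 transcription factor genes that passed, 5 were at least 2-fold higher in SVEC, among them Irf7 (147.2 against 1.87 CPM), Irf9 (192.8 against 8.69) and Relb (17.2 against 8.08). Irf7 and Irf9 are interferon regulatory factors, and Relb is an NF-kappaB subunit. Relb had the higher mean in SVEC but was found in fewer cells there (11 of 48 against 14 of 46). Its median was 0 in both lines, and its highest SVEC value was 265.6 CPM. Irf7 and Irf9 passed the filter through SVEC alone, with counts in 2 and 7 of 46 C10 cells, so their direction was largely set by it. Rfxap, a subunit of the RFX factor of MHC promoters, was higher in C10 (7.54 against 0.595 CPM) and passed through C10 alone. Irf1, which acts at Tap1 and Psmb9, had 94.4 and 74.6 CPM. Of 8 interferon receptor and signalling genes, 1 was 2-fold higher in SVEC (Ifngr1, 78.5 against 25.7 CPM) and 3 in C10 (Ifnar2, Ifngr2 and Jak2). Jak2 passed through C10 alone, with counts in 8 of 48 SVEC and 23 of 46 C10 cells, which favoured its direction.

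Of 21 interferon-stimulated genes that passed, 20 were at least 2-fold higher in SVEC and none in C10. Their median log2 ratio was 2.51 over 15 genes with counts in both lines, and 4.04 with the other 6 at their bounds. Ifit3, Oasl2, Oas1a, Usp18, Iigp1 and Gbp7 had no count in any C10 single cell and 569.8, 321.9, 242.6, 93.7, 89.8 and 54.6 CPM in SVEC, and so passed the filter through SVEC alone. Gbp2, Gbp3, Ifit2 and Igtp also passed through SVEC alone, with counts in 5, 1, 9 and 3 of 46 C10 cells. The direction of all these genes was thus largely set by the filter. Gbp3 (124.2 against 1.14 CPM) and Ifi44 (394.5 against 3.88) were 109- and 102-fold higher, the C10 mean of Gbp3 resting on 1 cell. Class II reads were sparse: 5 of 10 genes had no count in any single cell, and 3 passed the filter. H2-DMb1 and H2-DMb2 passed through SVEC alone, with means of 16.6 and 11.3 CPM there, so their direction was set by the filter. H2-DMa had a higher mean in SVEC (26.6 against 12.7 CPM) but was found in fewer cells (10 of 48 against 16 of 46). The part of the interferon genes in the class I levels was not tested.

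Among SVEC cells the members varied largely apart from each other. Over the 42 cells of at least 100000 counts, the 15 pairs among the 6 members found in at least 50% of them had Pearson r from -0.28 to 0.65, with a median of 0.09. Psmb8 and Psmb9 had r = 0.37 and Spearman rho = 0.18. The mean of log2(CPM + 1) over the members had r = 0.56 with the mean of the interferon-stimulated list, 0.26 with the other proteasome core genes and 0.34 with log2 library total. It had r = 0.55 with the number of genes detected, a measure of library quality that the cells share with all such values, and its part in the r of 0.56 was not tested.

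Of 3525 genes ranked in those 42 cells by r with the members' mean, the first 10 were Cgrrf1, Abhd17a, Hdac2, Rpl10, Cnn3, Aifm1, Lgals3bp, Hadhb, Ythdf2 and Prpsap1. Their r ran from 0.59 for Cgrrf1 to 0.52 for Prpsap1, beside a median of 0.15 over all ranked genes. Of 15 interferon-stimulated genes ranked, 0 were among the 10. A list of 15 among 3525 genes would rarely reach the first 10, so nothing is drawn from this count. None of the 10 stayed there when libraries from 1000 counts were used, so the order rests on which libraries enter. Lgals3bp, a secreted glycoprotein gene, was the only one of them with a large difference between lines (350.6 CPM in SVEC and 35.9 in C10).

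In the input series, 10 cells were tested against 3 cells, and the 1-cell libraries are described by their values without a test. None of the 7 members tested passed, and with every library kept none had an unadjusted p under 0.05. Over all genes, 0% of 13602 were called (edgeR quasi-likelihood test, Benjamini-Hochberg adjusted p under 0.05), with 1592 at an unadjusted p under 0.05. DESeq2 called 564 (4.15%) and limma 14 (0.103%), with no member among them. H2-K1 differed by -0.63 on the log2 scale (SE 0.57, edgeR adjusted p = 0.907) and H2-D1 by 0.39 (SE 0.83, adjusted p = 0.997). The edgeR test gives no SE, so each SE is approximate: the absolute log2 difference over the square root of the F statistic. Tapbp differed by -0.99 (SE 0.97, edgeR adjusted p = 0.936), and Psmb10 by -0.48 (SE 0.65, adjusted p = 0.997). The errors of Tap2, Psmb9 and Nlrc5 exceeded 2 on that scale. B2m and Psmb8 had no counts and Tap1 too few. Of 88 pathway genes tested, 0 were called and 6 had an unadjusted p under 0.05. Nothing in the labels says that libraries came from separate cultures, so these p-values measure only the spread between libraries.

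Spread between libraries narrowed with input for the better-detected members. The coefficient of variation of CPM fell at each step from 1 to 3 to 10 cells for H2-K1 (1.31, 0.651 and 0.269), H2-D1 (1.59, 0.693 and 0.256), Tapbp (1.48, 0.643 and 0.402), Psmb10 (1.15, 0.886 and 0.389) and Tap2 (2.23, 1.84 and 1.23). It did not for Tap1, Psmb9 and Nlrc5. These are 5 of 8 members with counts in all 3 inputs, beside 62.1% of 13220 genes, a share near the background. The median over all genes was 1.87, 1.19 and 0.848, above the values of H2-K1, H2-D1, Tapbp and Psmb10. Leaving out 1-cell replicate 1, which had 538 genes and no member read, the count was again 5 (57.9% of genes).

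**Figure D5:**
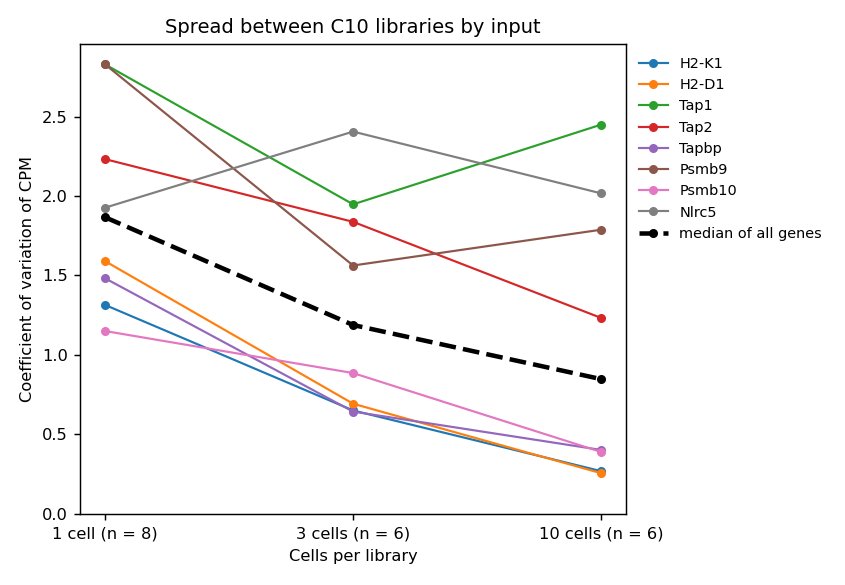
Coefficient of variation of CPM between C10 libraries (vertical axis) for inputs of 1, 3 and 10 cells, with a line for each member with counts in all 3 groups and a dashed line for the median of all genes. H2-K1, H2-D1, Tapbp and Psmb10 lie below the median of all genes at every input.

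The 1-cell libraries were the most uneven. They held 0 to 8 of the 10 members (median 2.5), against 5 to 6 with 3 cells and 5 to 7 with 10 cells. Replicates 13 and 14 had 1 member each in spite of 13614523 and 7838544 counts, while replicate 10 had 8. Between the C10 single cells and the 1-cell libraries of the input series, Psmb10 was 4.97-fold higher in the single cells (62.5 against 12.6 CPM, or against 14.4 ± 14.6 without replicate 1, SD, n = 7). There 32% of 12303 genes were at least 2-fold higher in the single cells and 24% in the 1-cell libraries, so 1 such member is near the background. Nlrc5, at 0.122 CPM, was the one member at least 2-fold higher in the 1-cell libraries, on at most 8 reads a library. H2-K1, H2-D1, Tap2 and Tapbp were within 2-fold.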

How the data were processed

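The members and the gene lists were chosen with earlier results of these data known. Per the labels' protocols, SMART-Seq v4 Plus gave full-length cDNA, sequenced as single 150-base reads. The authors deposited whole-number read counts per gene symbol, 40202 symbols and 5 closing counters a library. The submitters' processing notes name FastQC, STAR and HTSeq, and versions, genome build, annotation and strand setting are not given in the sources used here. The counters were left out (reads not aligned, median 30.7%; the others, 8.59%). No molecular identifiers are described, so intervals and floors cover counting error only. Libraries under 1000 counts were left out (2 C10 single cells, with 971 and 56 counts and no member read). Counts were scaled to 1e+06 per library. The lines were compared by ratios of mean CPM, and 10 against 3 cells by edgeR 4.0.16 (TMM, quasi-likelihood; genes with reads in 50% or more of one group), with DESeq2 1.42.0 and limma 3.58.1 on log2(CPM + 1) as alternatives, in R 4.3.3. On simulated counts for that comparison edgeR found 18.7% of 193 genes shifted by log2 4 and 68.2% of 198 shifted by 8, and made 0 calls with no gene shifted, where DESeq2 made 88. Lengths come from GENCODE M21. Named genes were all members, genes of each pathway list with at least 4-fold ratios (at most 8 a list), the constitutive catalytic subunits, and the 10 genes most like the members in SVEC. One gene that the naming rule covers is left out of the text. Genes named beside these were chosen after their values were seen.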

Additional observations from a re-analysis of the deposited data

Results flagged for a closer look

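A single library stood apart from its group in 8 of 24 sets of values (members by input group) tested with Dixon's criterion at 95%. About 1 in 20 sets, or 1.2 of 24, would be marked by chance. Many of these sets are mostly 0, where 1 library with reads is marked at once. Of the 1-cell libraries, replicate 10 was high for 3 members: Tap1 at 62.1 CPM and Psmb9 at 24.3 CPM, with 0 in the other 7, and Nlrc5 at 0.669 CPM, where the others reached 0.239. Replicate 10 also had the most genes detected of its group, 11764. Tap1 was at 10.0 CPM in 10-cell replicate 9 and at 0 in the other 5. Nlrc5 was at 21.3 CPM in 3-cell replicate 6 and at 4.82 CPM in 10-cell replicate 2. Tapbp was the one member marked low: it was listed at 0 in 3-cell replicate 9, where the other 5 had 79.8 to 261.5 CPM, and at 24.0 CPM in 10-cell replicate 6, where the others had 71.2 to 117.3 CPM.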

How the results depend on the processing

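The count of 6 members at least 2-fold higher in SVEC was 4 from median CPM, where Tap1 and Tap2 have a median of 0 in both lines, and 6 under the other 5 alternatives. For 10 against 3 cells, edgeR called 0 genes in every edgeR setting, DESeq2 called 564 and limma 14, and no member was called in any setting. With the replicate number as a block, 0 genes were called and 1284 had an unadjusted p under 0.05. Same-numbered libraries did not deviate together (r from -0.02 to 0.05, 2 of 6 best matched by their own number), so the numbers were not taken to pair them. Tap2, Tapbp, Psmb9, Psmb10 and Nlrc5, all negative by edgeR, turned sign in some settings. With the block, Tap2 was at 2.28 and Psmb9 at 1.08 on the log2 scale. With limma on log2(CPM + 1), Tap2 was at 0.34, Tapbp 0.079, Psmb9 0.12 and Psmb10 0.086. The median of all genes was 0.08 by edgeR, 0.23 with library totals alone, 0.41 by limma and 0.87 with the block. Leaving out 1 library at a time gave ranges of -1.77 to 0.90 for Tap2, -2.06 to 0.53 for Psmb9, -0.67 to 0.10 for Psmb10 and -4.46 to 3.60 for Nlrc5, the last without 3-cell replicate 6. Without 3-cell replicate 9, where Tapbp was listed at 0, Tapbp was at -1.26 (SE 0.48). Its edgeR p was then 0.020 unadjusted and 0.257 adjusted. The causes were not tested. For SVEC against C10 single cells, the log2 ratio of H2-D1 was 8.77 from medians in place of 6.39 from means. TMM-scaled CPM lowered the log2 ratio of every member with counts in both lines. Tap2 went from 2.03 to 1.43, which is under 4-fold, and Tapbp from 0.63 to 0.16. Of the 10 genes most like the members, 6 stayed with Spearman rho and 0 with all libraries of at least 1000 counts. Depth differs between the lines: 3 reads in SVEC were worth 34.3 CPM on average and 3.32 in C10 single cells.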
